A study of Mus musculus with 12 samples.

Results

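The Toll-like receptor genes Tlr1, Tlr2, Tlr3, Tlr4, Tlr6, Tlr7, Tlr8, Tlr9 and Tlr13 and the co-receptor gene Cd14 were followed in mouse bone marrow-derived macrophages (BMDM) by RNA sequencing. These 10 genes were taken by symbol from the 14098 genes of the table, as a set chosen with earlier results of these data known, and all 10 were among the 11194 genes tested, those that reached 1 TPM in 2 or more of the 12 libraries. Toll-like receptors are membrane proteins that bind conserved molecules of microbes and start inflammatory transcription. One class sits at the cell surface, where Tlr4 recognizes lipopolysaccharide and Tlr2, paired with Tlr1 or Tlr6, recognizes bacterial lipopeptides, and Cd14 hands such ligands to them. The other class is carried to endosomes by the chaperone Unc93b1 and reads nucleic acids. These are double-stranded RNA (Tlr3), single-stranded RNA and its breakdown products (Tlr7, to which Tlr8 is related), unmethylated CpG DNA (Tlr9) and bacterial ribosomal RNA (Tlr13).

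BMDM came from the bone marrow of C57Bl/6 mice aged 8 to 10 weeks, given as male and female. The mice were either WT or Camkk2-/- (labelled KO), which lack the calcium/calmodulin-dependent kinase kinase encoded by Camkk2. The cells of each genotype were placed in a collagen-hyaluronic acid hydrogel and kept soft, kept soft with interleukin-4 (soft+IL-4), or stiffened 24 h after encapsulation by UV crosslinking with the photoinitiator Irgacure 2959 (stiff), and the cells were cultured for 48 h after stiffening. Each of the 6 groups held 2 libraries, given as biological replicates, and the labels do not say whether these came from separate animals. In each genotype the titles of the 2 soft+IL-4 libraries carry the same soft number, and whether they share a preparation is not stated. The p-values therefore measure the spread between these libraries, which may be partly technical. Stiffness, UV light and the changed matrix come together in the stiff group and cannot be told apart. The deletion is present from the animal onward in all KO groups, so that an effect on macrophage differentiation and one on the cultured cell cannot be told apart. Values are TPM, in which reads are divided by gene length and every library is scaled to the same total, so levels of different genes can be compared. In such bulk samples, fewer cells of a type and less RNA per cell cannot be told apart.

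Some libraries went against their labels. Of Camkk2, WT soft 1 and 2 held 44.2 and 11.7 TPM, and KO soft 1 and 2 held 46.6 and 11.5 TPM. KO stiff 1 held 37.7 TPM and KO stiff 2 10.0 TPM, while the other WT libraries were between 23.3 and 30.5 TPM and those of KO soft+IL-4 at 11.5 and 8.54 TPM. WT soft 2, KO soft 1 and KO stiff 1 thus do not match their genotype label, and results are given with and without these 3 libraries. Over all genes tested, the root mean square difference of log2(TPM + 1) between WT stiff 2 and WT soft+IL-4 2 was 0.188, against 0.691 between WT stiff 2 and its own replicate, whereas replicates of the other groups differed by 0.293 to 0.390. Some other libraries of different groups were also closer than the replicates of any group, such as WT soft 2 and KO soft 2 (0.195). All 6 macrophage markers (Adgre1, Csf1r, Cd68, Itgam, Fcgr1 and Mertk) were measured in every library, and their sum ran from 3948 to 5629 TPM. The defining markers of plasmacytoid dendritic cells and B cells, which also use Tlr7 and Tlr9, were near 0, with sums of 2.67 to 8.88 TPM over 6 genes and of 0.657 to 3.38 TPM over 4 genes. The labels name mice of both sexes, but Xist, which marks a second X chromosome, was at most 0.0429 TPM in any library. The Y-linked Ddx3y was at least 16.5 TPM in all 12. All libraries thus had the expression pattern of male cells, which bears on the X-linked genes Tlr7, Tlr8 and Tlr13.

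The promoters of 3 receptors with large differences between groups and of Tlr8, which differed least, are shown so that their sequence can be read beside the expression values. Each window holds 250 bases before and 50 after the gene start from RefSeq (GRCm38.p6), written 5′ to 3′ on the transcribed strand. They are Tlr2 (chr3:83841559-83841858, minus strand), Tlr9 (chr9:106222348-106222647, plus strand), Tlr13 (chrX:106143025-106143324, plus strand) and Tlr8 (chrX:167264280-167264579, minus strand).
Tlr2: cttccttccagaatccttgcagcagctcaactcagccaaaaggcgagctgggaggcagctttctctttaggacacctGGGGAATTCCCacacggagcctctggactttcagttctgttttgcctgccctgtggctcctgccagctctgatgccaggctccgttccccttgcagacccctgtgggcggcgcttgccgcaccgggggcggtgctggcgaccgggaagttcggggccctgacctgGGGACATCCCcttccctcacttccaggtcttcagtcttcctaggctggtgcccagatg
Tlr9: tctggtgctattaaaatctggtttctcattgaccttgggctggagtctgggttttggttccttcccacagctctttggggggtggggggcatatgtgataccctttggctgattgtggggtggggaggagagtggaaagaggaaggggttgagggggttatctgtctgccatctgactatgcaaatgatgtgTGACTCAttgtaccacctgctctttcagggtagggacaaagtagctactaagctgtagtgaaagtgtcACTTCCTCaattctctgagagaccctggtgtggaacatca
Tlr13: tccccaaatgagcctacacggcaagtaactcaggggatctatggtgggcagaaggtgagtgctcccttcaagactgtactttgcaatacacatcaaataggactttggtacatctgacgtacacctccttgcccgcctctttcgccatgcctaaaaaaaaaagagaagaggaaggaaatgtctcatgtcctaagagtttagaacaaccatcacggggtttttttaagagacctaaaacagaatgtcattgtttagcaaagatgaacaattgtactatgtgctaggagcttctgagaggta
Tlr8: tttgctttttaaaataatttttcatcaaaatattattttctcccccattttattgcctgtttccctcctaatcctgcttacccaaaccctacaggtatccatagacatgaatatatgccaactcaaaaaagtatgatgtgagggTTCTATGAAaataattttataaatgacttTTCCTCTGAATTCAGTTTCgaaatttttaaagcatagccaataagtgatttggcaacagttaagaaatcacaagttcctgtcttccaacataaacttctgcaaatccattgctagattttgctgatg
Capitals mark matches, on either strand, to any of 6 motifs of factors that act in macrophages. These were the interferon response core GAAANNGAA (in 8.55% of all 32817 RefSeq promoter windows of the same length), TTC and GAA spaced by 4 bases as in STAT6 sites (6.94%) or by 3 bases as in other STAT sites (8.29%), the NF-kB consensus (4.50%), the PU.1 core GAGGAAGT (3.20%) and the AP-1 core TGANTCA (7.81%). The Tlr2 window held matches to the NF-kB consensus from −173 to −163, where 2 matches overlap, and from −8 to 2 relative to the gene start. In the Tlr9 window there was an AP-1 core from −58 to −52 and a PU.1 core from 11 to 18. The Tlr8 window held the 3-base STAT spacing from −106 to −98, the 4-base spacing from −77 to −68 and directly beside it the interferon response core from −67 to −59. No match was found in the Tlr13 window, and no STAT spacing in those of Tlr2 and Tlr9. Tlr1, Tlr3 and Tlr6 also have entries in the table, with matches to the PU.1 core and the 3-base STAT spacing for Tlr1, to NF-kB for Tlr3 and to the interferon response core and the 3-base STAT spacing for Tlr6.

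In the soft matrix, Cd14 was by far the most abundant of the 10 genes in both genotypes. It was followed by Tlr13, Tlr8, Tlr2 and Tlr7, which lay between 75.3 and 123 TPM over the 4 soft libraries and whose neighbours in this order overlapped. Tlr1 came next at 55.1 to 61.2 TPM, then Tlr4 at 30.0 to 33.9 TPM and Tlr9 at 24.1 to 27.8 TPM, each separated from the next. Tlr6 (14.1 to 15.2 TPM) and Tlr3 (5.21 to 7.32 TPM) were lowest. The other Toll-like receptor genes of the mouse table, Tlr5 (a flagellin receptor), Tlr11 and Tlr12, were at or near 0, with at most 0.161, 1.04 and 0.656 TPM in any library, and did not pass the filter.

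With IL-4 all of the genes fell but Tlr1, Tlr4 and Tlr8, of which Tlr1 was lower without passing the test, Tlr8 overlapped and Tlr4 was higher. In the stiff matrix the genes differed from soft in WT, with Tlr2, Tlr9, Cd14 and Tlr1 farthest below it, and lay close to soft in KO. Differences were tested with limma on log2(TPM + 1) in 1 model over all 12 libraries, and a gene is said to rise or fall where its Benjamini-Hochberg adjusted p over all genes was under 0.05. Over both genotypes, 7 of the 10 genes fell with IL-4 and 0 rose, where 22.9% of all genes tested passed in either direction. In 8 of the 10 genes every IL-4 library lay below every soft library, a separation that 21.2% of all genes showed. By genotype, 5 fell in WT (10.7% of all genes passed) and 7 in KO (10.3%). In the stiff matrix 7 fell and 1 rose in WT (10.6%), and 0 of the 10 passed in KO, where 0.0447% of all genes did (5 genes by limma, 295 at an unadjusted p under 0.05). IL-4 and stiff were both compared with WT soft 1 and 2, so the WT comparisons share their controls. The median difference of the 10 genes was −0.92 with IL-4 over both genotypes, −1.08 in stiff against soft in WT and −0.21 in stiff against soft in KO, beside medians of −0.05, 0.02 and −0.01 over all genes tested. Without the 3 libraries whose Camkk2 goes against the label, Tlr2, Tlr7, Tlr9, Tlr13 and Cd14 still fell with IL-4 over both genotypes, and Tlr2, Tlr7 and Tlr13 in WT stiff.

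**Figure D1:**
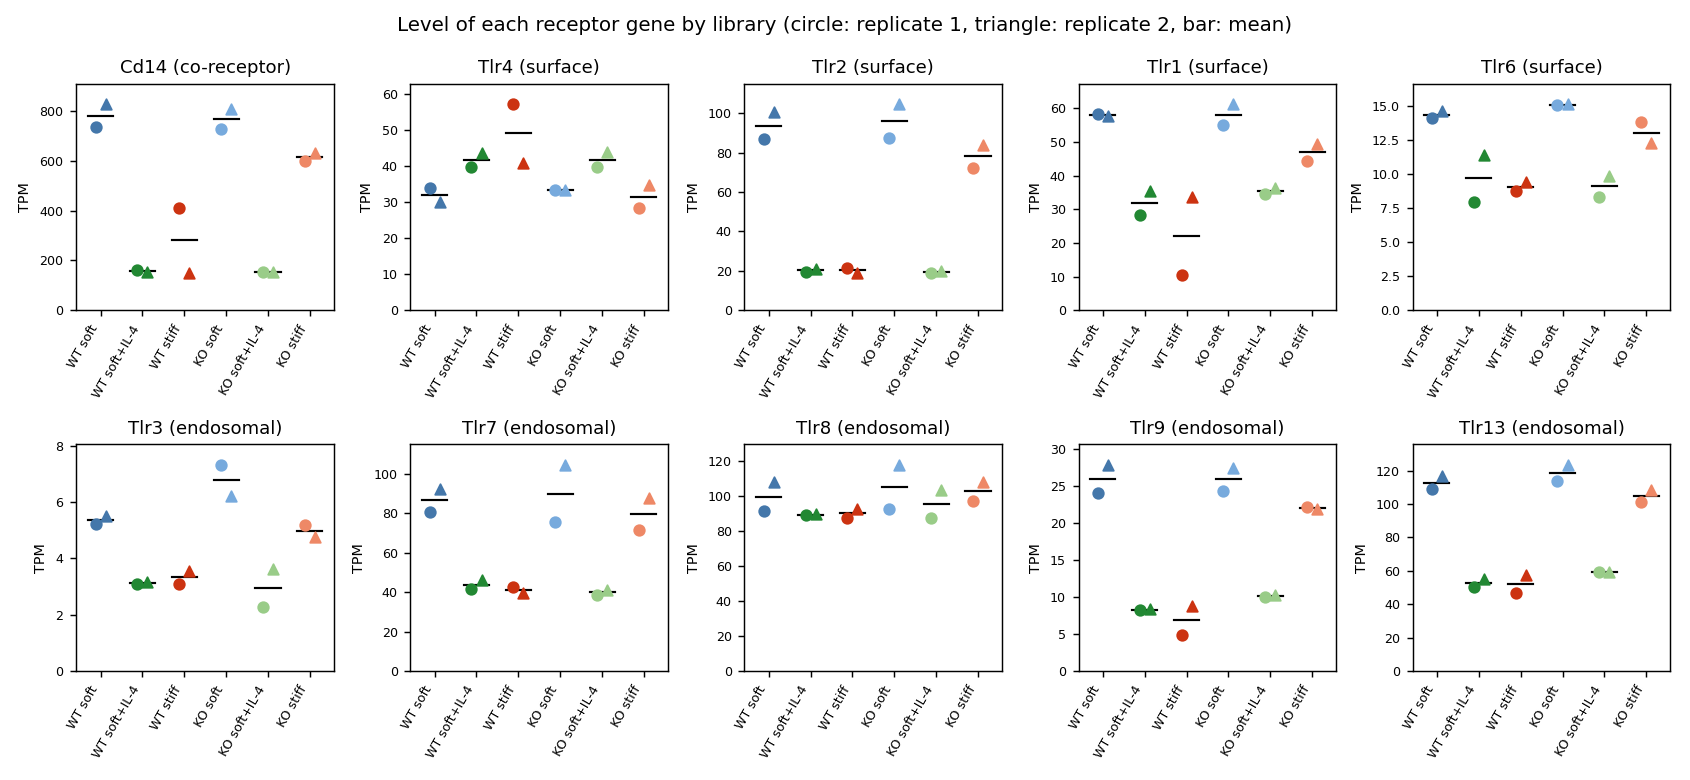
TPM of the 10 genes in each of the 12 libraries, by group, on linear axes that start at 0, with the 2 libraries of a group as a circle and a triangle and their mean as a bar. Tlr2, for instance, sits between 18.8 and 21.7 TPM in the soft+IL-4 and WT stiff libraries and between 72.3 and 105 TPM in all others, while Tlr8 stays between 87.2 and 118 TPM throughout.

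Cd14 (on chromosome 18), the co-receptor that passes lipopolysaccharide to the complex of Tlr4 and Ly96, had the largest fall of the 10 genes with IL-4. The soft libraries held 734 and 827 TPM in WT and 726 and 808 TPM in KO, and those with IL-4 held 161 and 152 TPM in WT and 154.0 and 155 TPM in KO. The 4 IL-4 libraries lay below all soft libraries, with a ratio of means of 0.201 and a difference in log2(TPM + 1) of −2.31 over both genotypes (SE 0.245, limma, Benjamini-Hochberg adjusted p = 0.000202). Of the stiff libraries, those of WT were apart from each other, at 412 and 150.5 TPM, both below soft (−1.64, SE 0.347, limma, Benjamini-Hochberg adjusted p = 0.0165). This difference was −2.36 without WT stiff 1 and −0.92 without WT stiff 2. The KO stiff libraries, at 599.7 and 630.3 TPM, lay above both WT stiff libraries, and the difference between genotypes was 1.30 (SE 0.347, limma, Benjamini-Hochberg adjusted p = 0.0696).

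Tlr4 (chr4:66827584-66930284, plus strand), the lipopolysaccharide receptor, was the one gene with higher values in the groups where the others were lower. The soft libraries held 33.9 and 30.0 TPM in WT and 33.4 and 33.3 TPM in KO. With IL-4 it was at 39.7 and 43.5 TPM in WT and at 39.6 and 43.8 TPM in KO, so the groups did not overlap. The difference over both genotypes was 0.34 (SE 0.113, 95% interval 0.09 to 0.60, limma, Benjamini-Hochberg adjusted p = 0.0572), which did not pass, but did with median-of-ratios scaling and in a model of the 8 libraries compared alone (limma, Benjamini-Hochberg adjusted p = 0.0224 and 0.00575). The WT stiff libraries held 57.1 and 40.9 TPM, a rise by 0.59 on the log2 scale (SE 0.160, limma, Benjamini-Hochberg adjusted p = 0.0473). That rise was near the threshold and was no longer past it without either WT soft library or without WT stiff 1, where it was 0.35. Without the 3 libraries whose Camkk2 goes against the label, the difference was 0.30 with IL-4 and 0.50 in WT stiff, and neither passed. The KO stiff libraries, with 28.3 and 34.7 TPM, overlapped KO soft.

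Tlr2 (chr3:83836272-83841767, minus strand), the partner of Tlr1 and Tlr6 in lipopeptide binding, had falls that were large against its spread. Its promoter window held 3 NF-kB matches, 2 of them overlapping, and a link with the falls was not tested. The soft libraries were at 86.8 and 100.4 TPM in WT and at 87.2 and 105 TPM in KO. With IL-4 they were at 19.4 and 20.9 TPM in WT and at 18.9 and 20.1 TPM in KO, and the WT stiff libraries were at 21.7 and 18.8 TPM. These 6 libraries overlapped each other and none came near the soft level. The differences were −2.20 with IL-4 over both genotypes (SE 0.0924) and −2.16 in WT stiff (SE 0.131), with limma, Benjamini-Hochberg adjusted p of 1.29e-06 and 3.48e-05. KO stiff stayed at 72.3 and 83.8 TPM, below both KO soft libraries by 0.29 on the log2 scale (95% interval −0.59 to 0.002, limma, Benjamini-Hochberg adjusted p = 1.00).

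Tlr1 (chr5:64924679-64933563, minus strand) and Tlr6 (chr5:64952031-64960097, minus strand), the alternative partners of Tlr2, lie 18467 bases apart. Of the 31-base words in Tlr1 transcripts, 18.3% also occur in Tlr6, and 16.4% of those in Tlr6 occur in Tlr1, so reads could have been split between them and their levels are uncertain to that extent. Tlr2, Tlr3, Tlr7, Tlr8, Tlr9, Tlr13 and Cd14 shared none, and Tlr4 0.559%, of their words with another gene. For Tlr1 the soft libraries held 58.3 and 57.6 TPM in WT and 55.1 and 61.2 TPM in KO, and the IL-4 libraries 28.4 and 35.4 TPM in WT and 34.6 and 36.4 TPM in KO. All IL-4 libraries were below all soft libraries, yet the difference of −0.77 did not pass (SE 0.272, limma, Benjamini-Hochberg adjusted p = 0.0715). The WT stiff libraries, which enter the shared spread, were far apart for Tlr1, with 10.6 and 33.7 TPM. In WT stiff Tlr1 fell by 1.56 on the log2 scale (limma, Benjamini-Hochberg adjusted p = 0.0325), with −0.76 without WT stiff 1 and −2.35 without WT stiff 2. Tlr6 moved less. It was between 14.1 and 15.2 TPM in the 4 soft libraries, between 7.94 and 11.5 TPM in the 4 IL-4 libraries, with 8.75 and 9.43 TPM in the WT stiff ones, and fell by 0.61 on the log2 scale with IL-4 and by 0.61 in WT stiff (limma, Benjamini-Hochberg adjusted p = 0.00483 and 0.0439). The KO stiff libraries held 44.5 and 49.5 TPM of Tlr1 and 13.8 and 12.3 TPM of Tlr6, in each case below both KO soft libraries.

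Of the endosomal receptors, Tlr9 (chr9:106222598-106226883, plus strand), the receptor of CpG DNA, fell most. The soft libraries held 24.1 and 27.8 TPM in WT and 24.3 and 27.5 TPM in KO. The IL-4 libraries were at 8.19 and 8.32 TPM in WT and at 9.96 and 10.2 TPM in KO, and the WT stiff libraries at 4.92 and 8.76 TPM. All of these were below all soft libraries, with differences of −1.41 with IL-4 over both genotypes (SE 0.142) and −1.82 in WT stiff (SE 0.201), at limma, Benjamini-Hochberg adjusted p of 0.000146 and 0.000573. In a model of the libraries compared alone, the WT stiff difference did not pass (limma, Benjamini-Hochberg adjusted p = 0.116). It was −1.72 without the 3 libraries whose Camkk2 goes against the label. KO stiff, at 22.2 and 21.9 TPM, was within 0.22 of KO soft on the log2 scale (95% interval −0.67 to 0.23).

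Tlr13 (chrX:106143204-106160493, plus strand), which binds a bacterial ribosomal RNA sequence, was the most abundant Toll-like receptor gene in soft, at 109 and 117 TPM in WT and 114 and 123 TPM in KO. The IL-4 libraries held 50.1 and 55.2 TPM in WT and 59.4 and 59.3 TPM in KO, and those of WT stiff held 46.5 and 57.3 TPM. All 6 lay far below every soft library, and the differences were −1.04 with IL-4 over both genotypes (SE 0.0791) and −1.11 in WT stiff (SE 0.112), at limma, Benjamini-Hochberg adjusted p of 2.72e-05 and 0.000352. The KO stiff libraries held 101 and 108 TPM, just under those of KO soft.

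Tlr7 (chrX:167304929-167330558, minus strand), a sensor of single-stranded RNA in endosomes, and its relative Tlr8 (chrX:167242696-167264329, minus strand) are neighbours 40599 bases apart on the same strand, and they separated. For Tlr7 the soft libraries held 80.6 and 92.2 TPM in WT and 75.3 and 104 TPM in KO. With IL-4 it was at 41.6 and 45.9 TPM in WT and at 38.4 and 41.2 TPM in KO, and in WT stiff at 42.6 and 39.6 TPM. It fell by 1.05 on the log2 scale in both settings (IL-4 over both genotypes SE 0.113, stiff in WT SE 0.160, limma, Benjamini-Hochberg adjusted p = 0.000216 and 0.00334), with no overlap between these libraries and the soft ones. The KO stiff libraries held 71.6 and 87.8 TPM of Tlr7 and overlapped KO soft. For Tlr8 the soft libraries held 91.4 and 108 TPM in WT and 92.3 and 118 TPM in KO, the IL-4 libraries 88.9 and 89.4 TPM in WT and 87.2 and 103 TPM in KO, and the stiff libraries 87.6 and 92.6 TPM in WT and 97.0 and 108 TPM in KO. The IL-4 libraries overlapped the soft ones over both genotypes, although in WT both lay just below them, and WT stiff overlapped WT soft. Its difference was −0.14 with IL-4 over both genotypes (95% interval −0.36 to 0.07) and −0.14 in WT stiff (95% interval −0.45 to 0.17), at limma, Benjamini-Hochberg adjusted p of 0.330 and 0.606, so a fall the size of that of Tlr7 lies outside both intervals. The level of Tlr7 relative to Tlr8 ran from 0.738 to 0.888 in the soft and KO stiff libraries and from 0.400 to 0.514 in the IL-4 and WT stiff libraries.

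Tlr3 (chr8:45395665-45411080, minus strand), the receptor of double-stranded RNA, signals through Ticam1 and not Myd88, and was the lowest of the 10 genes. The soft libraries held 5.21 and 5.49 TPM in WT and 7.32 and 6.23 TPM in KO, and those with IL-4 held 3.10 and 3.17 TPM in WT and 2.26 and 3.62 TPM in KO. It fell with IL-4 over both genotypes by 0.81 on the log2 scale (SE 0.134, limma, Benjamini-Hochberg adjusted p = 0.00236), a value that the added pseudocount of 1 understates at this level. The stiff libraries held 3.10 and 3.56 TPM in WT and 5.20 and 4.76 TPM in KO, in each case below both soft libraries of the genotype. WT stiff had a difference of −0.56 that did not pass (limma, Benjamini-Hochberg adjusted p = 0.104).

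**Figure D2:**
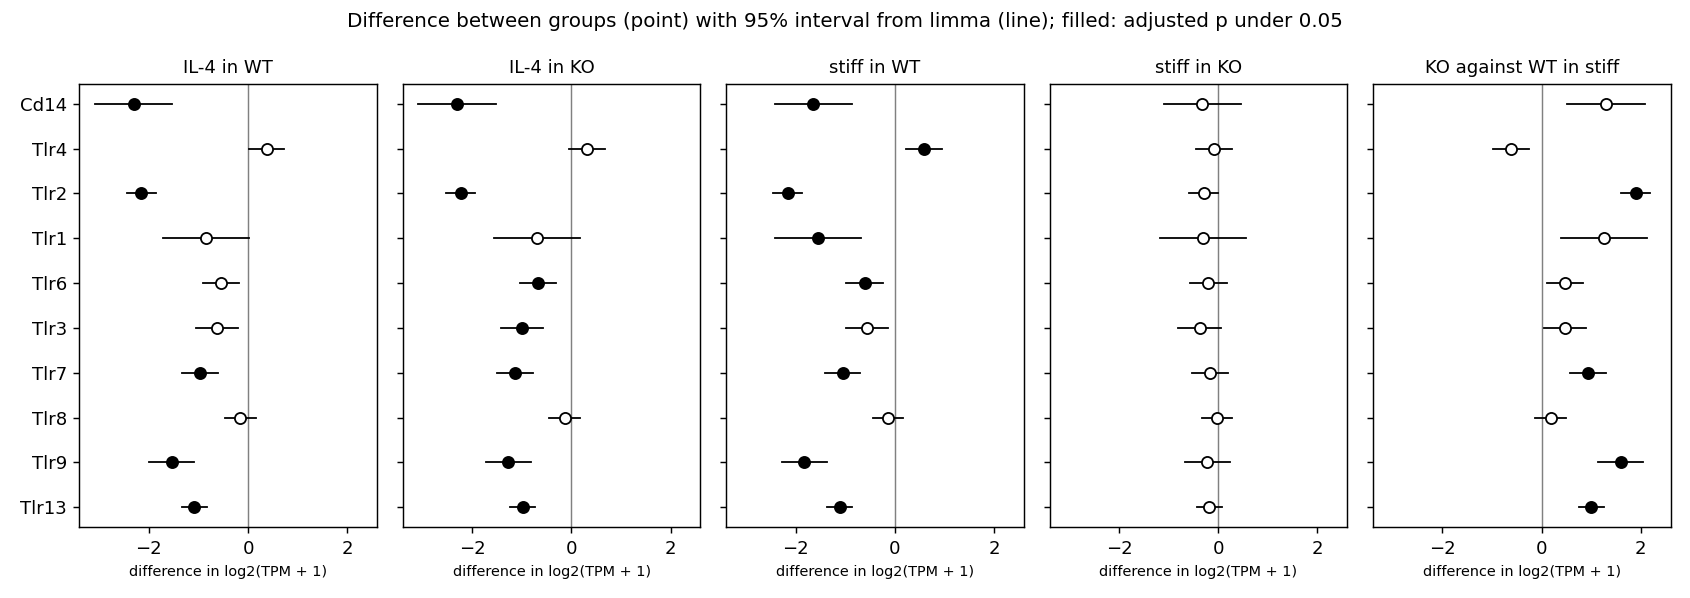
Differences in log2(TPM + 1) of each gene in 5 comparisons, as points with the 95% interval of limma as lines, filled where the adjusted p was under 0.05. The points of Tlr2, Tlr7, Tlr9 and Tlr13 lie left of 0 in the IL-4 and WT stiff panels, near 0 in stiff against soft in KO and right of 0 in KO against WT in stiff, and those of Tlr8 lie near 0 in all 5.

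Both classes, surface and endosomal, held genes that fell and genes that did not. With IL-4 over both genotypes, where 22.9% of all genes passed, 2 of 4 surface genes fell (Tlr2 and Tlr6, median over the class −0.69) and 4 of 5 endosomal genes fell (all but Tlr8, median −1.04). In WT stiff, where 10.6% of all genes passed, 3 of 4 surface genes fell and Tlr4 rose (median −1.08), and 3 of 5 endosomal genes fell (Tlr7, Tlr9 and Tlr13, median −1.05). The summed level of the surface genes was 191 to 214 TPM in the 4 soft libraries, 95.5 to 111 TPM in the 4 IL-4 libraries, 98.1 and 103 TPM in WT stiff and 159 and 180.3 TPM in KO stiff. The endosomal sum was 310.3 to 379 TPM, 192 to 217 TPM, 185 and 202 TPM, and 297 and 331 TPM in the same order. Endosomal genes thus made up 61.6% to 66.8% of the summed Toll-like receptor level in every library. The makeup inside each class shifted more than the share between them. Tlr4 was 14.8% to 19.2% of the surface sum in the soft and KO stiff libraries and 39.0% to 58.2% in the IL-4 and WT stiff libraries, and Tlr8 went from 29.5% to 32.6% of the endosomal sum to 44.2% to 47.4%. The ratio of Tlr2 to Tlr4 was 2.42 to 3.35 in the former libraries and 0.379 to 0.490 in the latter. The difference between the classes and these sums and ratios were not tested.

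**Figure D3:**
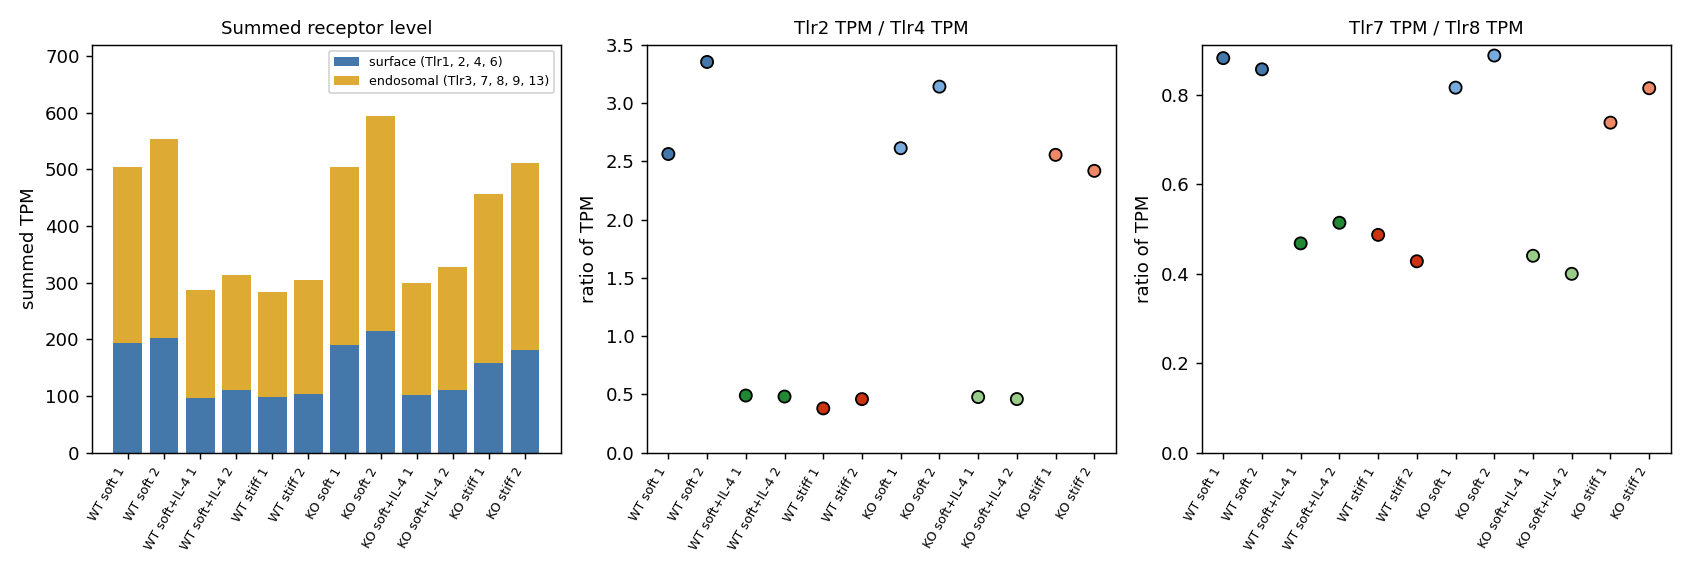
Left, summed TPM of the surface and endosomal genes in each library as stacked bars from 0, and middle and right, the ratio of Tlr2 to Tlr4 and of Tlr7 to Tlr8 as 1 point per library. Both ratios are lower in the 6 IL-4 and WT stiff libraries, at most 0.490 and 0.514, than in the 6 soft and KO stiff libraries, at least 2.42 and 0.738.

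The WT stiff libraries were also set against WT soft+IL-4 directly. By limma 0 of the 10 genes differed, and 0 of all genes passed (0%, with 557 at an unadjusted p under 0.05). The differences were −0.71 for Tlr1 (95% interval −1.57 to 0.16), 0.67 for Cd14 (−0.11 to 1.45) and between −0.28 and 0.21 for the other 8 genes. The result depended on WT stiff 2, which resembled WT soft+IL-4 over all genes. Without it, WT stiff 1 was higher than WT soft+IL-4 in Cd14 (1.39) and Tlr4 (0.45) and lower in Tlr1 (−1.50) and Tlr9 (−0.64), at limma, Benjamini-Hochberg adjusted p of 1.99e-05, 0.0408, 0.000105 and 0.00735, where the lone stiff library is assumed to vary like the other groups. Without WT stiff 1 the 10 differences lay between −0.14 and 0.14.

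No receptor gene passed the test between genotypes in soft or with IL-4. In KO against WT, 0 of the 10 genes passed in soft and 0 in soft+IL-4, as did 0 of all genes (0% in each, with 130 and 233 at an unadjusted p under 0.05 in limma). The differences ran from −0.02 (Cd14) to 0.29 (Tlr3) in soft and from −0.13 (Tlr7) to 0.26 (Tlr9) with IL-4. The interval for Tlr2 was −0.26 to 0.33 in soft and −0.34 to 0.25 with IL-4, and for Cd14, which varied more, −0.81 to 0.76 and −0.80 to 0.76. The change of the IL-4 effect with genotype passed for 0 of the 10 genes and 0% of all genes (165 at an unadjusted p under 0.05 in limma). As WT soft 2 and KO soft 1 go against their labels, each soft group held 1 library at each Camkk2 level.

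In the stiff matrix, some of the genes differed between the labelled genotypes in the model of all libraries. Tlr2, Tlr7, Tlr9 and Tlr13 were higher in KO than in WT, 4 of the 10 genes where 4.93% of all genes passed. The differences were 1.90 for Tlr2, 1.60 for Tlr9, 1.01 for Tlr13 and 0.93 for Tlr7, at limma, Benjamini-Hochberg adjusted p of 0.000287, 0.00238, 0.00132 and 0.0114. Tlr1 (1.26) and Cd14 (1.30) were higher in both KO libraries but did not pass (limma, Benjamini-Hochberg adjusted p = 0.110 and 0.0696). These values hung on the WT stiff library used. Without WT stiff 1 the difference was 0.47 for Tlr1 and 2.02 for Cd14, and without WT stiff 2 it was 2.05 and 0.58. With 1 WT stiff library left out, the gap between the 2 no longer enters the spread. These fits therefore cannot show whether Cd14 or Tlr1 differs. Tlr4 was lower in both KO libraries than in both WT libraries (−0.61, limma, Benjamini-Hochberg adjusted p = 0.0656). In all 10 genes both KO stiff libraries lay on one side of both WT stiff libraries, a separation that 39.1% of all genes showed in either direction. The change of the stiffness effect with genotype passed for Tlr2, Tlr9 and Tlr13, 3 of the 10 genes beside 0.974% of all genes. Against KO soft itself, KO stiff was lower in both libraries for 7 of the 10 genes (Tlr1, Tlr2, Tlr3, Tlr6, Tlr9, Tlr13 and Cd14), a separation that 18.7% of all genes showed in that direction, with differences of −0.38 to −0.18. These comparisons rest on KO stiff 1, KO soft 1 and WT soft 2, whose Camkk2 goes against the label. KO stiff 1, at 37.7 TPM of Camkk2, and KO stiff 2, at 10.0 TPM, both lay above both WT stiff libraries in the genes that passed. For Tlr2 they held 72.3 and 83.8 TPM and for Tlr7 71.6 and 87.8 TPM. For Tlr9 they held 22.2 and 21.9 TPM and for Tlr13 101 and 108 TPM. A link of these genes with the Camkk2 level was not tested. Without the 3 libraries, Tlr2 was still higher in KO than in WT stiff (2.00, limma, Benjamini-Hochberg adjusted p = 0.0202), and Tlr7, Tlr9 and Tlr13 kept their direction at 1.08, 1.59 and 1.05 without passing (limma, Benjamini-Hochberg adjusted p = 0.0633, 0.114 and 0.0832). In a model of the libraries compared alone, 0 of the 10 genes passed in stiff against soft in WT, in KO against WT in stiff or in the change of the stiffness effect.

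Macrophage markers moved in the same libraries. With IL-4 over both genotypes 5 of the 6 markers fell, beside 22.9% of all genes, among them Adgre1 by 1.00 (460 to 524 TPM with IL-4 against 886 to 1102 TPM in soft) and the Fc receptor gene Fcgr1 by 2.42 on the log2 scale, while Cd68 did not pass and ranged from 1813 to 2123 TPM over all libraries. The summed marker level was 4892 to 5629 TPM in soft, 3948 to 4395 TPM with IL-4, 4055 to 4131 TPM in WT stiff and 4835 to 5288 TPM in KO stiff. Of the 6 conventional dendritic cell markers 3 could be tested, and only Ccr7 rose with IL-4 over both genotypes (1.13). The sum of the 6 genes was between 4.18 and 11 TPM in soft and between 9.65 and 12.9 TPM with IL-4. It was between 12.8 and 21.6 TPM in WT stiff and between 7.04 and 8.33 TPM in KO stiff, with Xcr1 at 0 in 3 libraries. Ccr7 made up most of the sum with IL-4 and in WT stiff, where it was at 19.1 and 9.31 TPM. Of 10 neutrophil markers 8 were in the table and 3 could be tested, and none of these passed (sum 92.4 to 148 TPM, mostly Csf3r, which macrophages express too). The part of these shifts in the receptor values was not tested.

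The genes around the receptors were followed by role, over lists that were chosen with earlier results known, and their counts stand beside the 22.9% of all genes that passed with IL-4 over both genotypes (median difference −0.05), the 10.6% in WT stiff and the 4.93% in KO against WT in stiff. Of 14 tested accessory proteins and chaperones, 4 fell and 2 rose with IL-4 over both genotypes (median 0.01). The receptor-like Cd180 fell by 0.95 and its partner Ly86 by 0.55, and Slc15a4, an endolysosomal transporter needed for Tlr7 and Tlr9 signaling, fell by 0.92 (limma, Benjamini-Hochberg adjusted p = 6.56e-06). Slc15a4 held between 94.98 and 99.3 TPM in the 4 soft libraries, between 47.1 and 52.2 TPM in the 6 IL-4 and WT stiff libraries, and 83.8 and 84.4 TPM in those of KO stiff. Lgmn, a protease that processes endosomal receptors, fell by 0.20. Cd36, a scavenger receptor that cooperates with Tlr2, rose by 1.07, and Hsp90b1, the chaperone that folds Toll-like receptors, by 0.56. Ly96, the partner of Tlr4, was at 35.0 to 59.5 TPM and did not pass. Unc93b1 did not pass either and was at 1013 to 1284 TPM in all libraries but WT stiff 1, where it was at 542 TPM.

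Among 18 adaptors and kinases, 4 fell and 1 rose with IL-4 (median −0.17), a share near the 22.9% of all genes. Myd88, the adaptor of all these receptors but Tlr3, was at 85.2 to 102 TPM in soft and at 63.1 to 65.7 TPM with IL-4 (−0.55, limma, Benjamini-Hochberg adjusted p = 0.00225). Irak2 fell by 0.93, Ikbke by 1.09 and Tab2 by 0.44, whereas Ticam1, the adaptor of Tlr3 and Tlr4, rose by 0.29. In WT stiff Myd88, Tirap, Irak2 and Ikbke fell (4 of 18, beside 10.6% of all genes), and Irak2 and Ikbke were higher in KO than in WT stiff (2 of 18, beside 4.93%). Of 10 transcription factors 5 fell with IL-4 (median −0.18, beside 22.9% of all genes), namely Irf7 (−1.77), Relb (−0.68), Irf8 (−0.58), Nfkb2 (−0.44) and Rela (−0.29). In WT stiff 4 fell (beside 10.6%). Irf7 was at 10.9 TPM in WT stiff 1 and 51.6 TPM in WT stiff 2, against 171 and 202 TPM in WT soft. In KO against WT in stiff, 4 of the 10 were higher and 0 lower (beside 4.93%).

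Genes listed as inhibitors of the pathway moved both ways. Socs1, a cytokine-induced inhibitor that restrains Toll-like receptor signaling, rose by 4.10 with IL-4, from 4.87 to 11.7 TPM in soft to 123 to 158 TPM, and the stiff libraries held 151 and 123 TPM in WT and 37.3 and 30.5 TPM in KO. Atf3 rose by 0.70. The kinase-like Irak3 (−1.07), the NF-kB inhibitor Nfkbia (−0.69) and its family relative Nfkbiz (−1.94) fell. Nfkbiz was counted by the list alone, and whether it acts as an inhibitor here was not tested. Of the 11 tested genes of the list, 3 were thus lower and 2 higher with IL-4 (median −0.11, beside 22.9% of all genes). Of 11 tested target genes of the pathway 5 fell and 0 rose with IL-4 (median −1.09, beside 22.9%). Cxcl2, a neutrophil chemoattractant, ranged from 19.6 to 24.3 TPM in soft and from 4.69 to 5.79 TPM with IL-4, the stiff libraries held 4.57 and 4.66 TPM in WT and 14.7 and 17.6 TPM in KO, and the gene fell by 1.89 with IL-4 (limma, Benjamini-Hochberg adjusted p = 4.16e-06). Il1b fell by 1.63, Cxcl1 by 2.00, Cxcl10 by 2.10 and Il10 by 1.13. In WT stiff Il1b, Tnf, Cxcl2 and Cxcl10 fell and Nos2 rose, the last from 0.305 and 0.134 TPM to 4.64 and 1.15 TPM. Cxcl2, Il1b and Cxcl10 were higher in KO than in WT stiff (1.61, 2.28 and 3.12), 3 of 11 beside 4.93% of all genes. Il6 and Il12b were at or near 0 in every library.

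**Figure D4:**
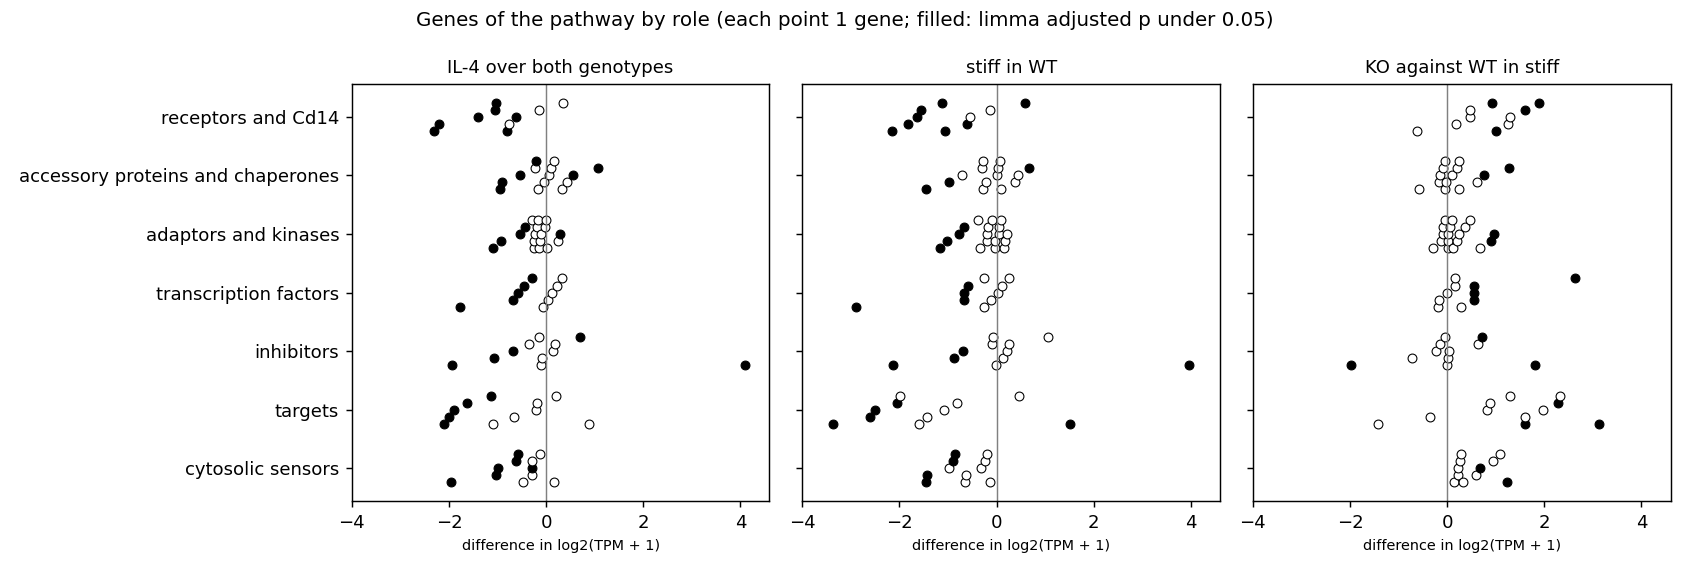
Differences in log2(TPM + 1) of the 10 genes and of the tested genes of 6 pathway lists in 3 comparisons, 1 point per gene, filled where the limma adjusted p was under 0.05. Most accessory proteins, adaptors and kinases lie near 0, the inhibitor Socs1 stands far to the right with IL-4 (4.10) and in WT stiff (3.97), and filled points of the target genes reach −3.36 in WT stiff (Cxcl10).

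The genes whose profile over the 12 libraries was most like that of the 3 widest-ranging members were named by the smallest root mean square difference between mean-centred log2(TPM + 1) values. Tlr2 was closest to Pou2f2 (0.0832), which encodes the transcription factor Oct-2, Clec4e (0.120), the receptor Mincle of fungal and mycobacterial glycolipids, and Sorl1 (0.130), a sorting receptor, where the median over all genes was 1.06. Cd14 was closest to the transcription factor gene Maf (0.130), the inflammasome sensor gene Nlrp3 (0.199) and the integrin gene Itga6 (0.216), with a median of 1.05. Tlr1 was closest to Ptafr (0.102), the receptor of platelet-activating factor, and to the interferon-induced genes Ifitm3 (0.138) and Irgm1 (0.148), with a median of 0.680. The wide range of Tlr1 rests on WT stiff 1, at 10.6 TPM, as the other libraries held 28.4 to 61.2 TPM. The points share their libraries, and no test was made.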

How the data were processed

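Polyadenylated RNA of 12 libraries was sequenced strand-specifically. The authors deposited 1 table of TPM values. The submitters' processing notes name Trim Galore 0.6.7, Salmon 1.4.0 and the build mm10, while the methods describe snakePipes with STAR, featureCounts and DESeq, so how shared reads were assigned is not settled. TPM keeps no counts, so depth and counting error are unknown. In every group more genes were at 0 TPM in replicate 1 (10.7% to 13.4%) than in replicate 2 (5.90% to 7.54%). The cause of this difference was not tested. Groups came from the sample labels, and 0 columns were left unused. Genes that reached 1 TPM in 2 or more libraries were tested on log2(TPM + 1) with limma 3.58.1 (R 4.3.3, a mean per group, no covariates, variance trend), with Benjamini-Hochberg adjustment over all genes in each of 11 comparisons and a threshold of 0.05, with no limit on the fold. An exact permutation test of 2 against 2 libraries cannot go below 0.333. The code was tested on simulated data. The receptors, the pathway and marker lists and the tests were chosen with earlier results of these data known. Named are all members, list genes that passed or were highest, and the 3 nearest profiles of the 3 widest-ranging members. Positions are from GENCODE vM21 (GRCm38) and promoters from RefSeq. Alternatives were a pseudocount of 0.1, no filter, median-of-ratios scaling, only the libraries compared, a replicate block, a minimum log2 change of 1 in either direction, no libraries whose Camkk2 goes against the label, and each library left out.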

Additional observations from a re-analysis of the deposited data

Results flagged for a closer look

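The effect of the stiff matrix differed between genotypes for 3 of the 10 genes by a test of the difference itself, the interaction term of the limma model. The KO minus WT difference of the stiffness effect in log2(TPM + 1) was 1.86 for Tlr2, the lipopeptide receptor (95% interval 1.45 to 2.28, limma, Benjamini-Hochberg adjusted p = 0.00944). For Tlr9, the receptor of CpG DNA, it was 1.60 (0.96 to 2.24, limma, Benjamini-Hochberg adjusted p = 0.0337), and for Tlr13, the receptor of bacterial ribosomal RNA, 0.94 (0.58 to 1.29, limma, Benjamini-Hochberg adjusted p = 0.0286). In these genes both WT stiff libraries were below both WT soft libraries by a wide margin, and KO stiff was close to KO soft. Without the 3 libraries whose Camkk2 goes against the label, the values were 1.74, 1.41 and 0.88 and none passed (limma, Benjamini-Hochberg adjusted p = 0.270, 0.998 and 0.924).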

How the results depend on the processing

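With 2 libraries in each group the number of receptor genes that passed depended on the libraries in the model. In the libraries compared alone, 0 passed in stiff against soft in WT (8 in the model of all libraries), 0 in KO against WT in stiff (4) and 0 in the change of the stiffness effect with genotype (3), as did 0 genes of the whole table (1186, 552 and 109), while 1918, 1809 and 64 genes passed with IL-4 in WT (1198), in KO (1151) and in KO against WT with IL-4 (0). Without the 3 libraries whose Camkk2 goes against the label, which leaves 3 groups with 1 library each, 1 receptor gene passed with IL-4 in WT (5), 3 with IL-4 in KO (7), 3 in stiff against soft in WT (8), 1 in KO against WT in stiff (4) and 0 in the change of the stiffness effect (3). Over all genes these counts were 119, 204, 151, 20 and 2, with 799 for IL-4 over both genotypes (2567), 4 and 1 for genotype in soft and with IL-4 and 1 for stiff against soft+IL-4 in WT (0 each). Without the filter 5 receptor genes passed in stiff against soft in WT (8), beside 1065 genes of the whole table (1186). Median-of-ratios scaling left 1 receptor gene in the change of the stiffness effect. A minimum log2 change of 1 left 4 with IL-4 in KO, and over all genes 421, 409 and 487 with IL-4 in WT, KO and both, 444 in stiff against soft in WT and 222 in KO against WT in stiff. In stiff against soft in KO (5 genes), 9 passed with median-of-ratios scaling, 8 with the replicate block, 1 in the libraries compared and 0 without the 3 libraries. The cause of these differences was not tested beyond the smaller number of libraries.

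With each library left out in turn, receptor genes that passed numbered 4 to 6 with IL-4 in WT, 5 to 6 in KO and 7 over both in every case, 4 to 8 in stiff against soft in WT (4 without either WT soft library), 3 to 7 in KO against WT in stiff (7 without WT stiff 2), 1 to 7 in the change of the stiffness effect (1, Tlr2, without any soft or KO stiff library, and 7 without WT stiff 2) and 0 to 4 in stiff against soft+IL-4 in WT (4 without WT stiff 2). Over all genes the same counts were 390 to 546, 372 to 579, 1649 to 2025, 475 to 3065, 142 to 2785, 4 to 1785 and 0 to 3035, with 1 to 2 in stiff against soft in KO and 0 to 1 for genotype in soft. The falls of Tlr2 with IL-4 and in WT stiff and its higher level in KO stiff passed under every alternative run but 1: in the libraries compared alone, the last pair did not (limma, Benjamini-Hochberg adjusted p = 0.0525 and 0.205). The difference of Tlr8 with IL-4 in KO ran from −0.31 without KO soft 1 to 0.038 without KO soft 2, which turned its direction. Of the named log2 fold changes, 188 values with 1 library left out stayed on their side of the threshold, 31 lost it, 4 gained it and 1 turned, and under the other alternatives 250 stayed, 55 lost it and 3 gained it. The replicate numbers were not taken to pair the samples, since over 15 pairs of groups the correlations of same-numbered deviations ran from −0.053 to 0.314 and only 3 were over 0.1. Those 3 (0.314, 0.283 and 0.307) were the pairs among WT soft, KO soft and KO stiff, the groups in which replicate 1 held high and replicate 2 low Camkk2. The share of genes at 0 TPM did differ by replicate number in every group. With the replicate block, 7 receptor genes passed in stiff against soft in WT, where Tlr4 no longer did (limma, Benjamini-Hochberg adjusted p = 0.0643), and the block changed no other count of receptor genes. TPM gives no counting error, which limits Tlr3 and the receptors near 0 most.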

Other observations

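Microbial molecules are also sensed in the cytosol, by proteins outside the Toll-like receptor family. With IL-4 over both genotypes, 6 of 11 tested cytosolic sensor genes fell and 0 rose, beside 22.9% of all genes tested. Nlrp3, the inflammasome sensor, fell by 1.95 on the log2 scale (SE 0.220, limma, Benjamini-Hochberg adjusted p = 0.000274), from 20.02 to 27.1 TPM in the 4 soft libraries to 4.49 to 5.48 TPM with IL-4. Nod2, the receptor of muramyl dipeptide, fell by 1.03 and Ddx58, which encodes the RNA helicase RIG-I, by 0.99, and Ifih1 (−0.58), Nod1 (−0.62) and Aim2 (−0.29) fell less. In WT stiff 4 of 11 fell (Ddx58, Ifih1, Nod2 and Nlrp3), where 10.6% of all genes passed, and Nlrp3 was at 12.2 and 5.05 TPM. Tmem173, the adaptor STING of cytosolic DNA sensing, was at 39.0 to 63.0 TPM and did not pass in either comparison.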
